A study of Mus with 2 samples.

Results

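The imprinted growth genes Igf2, H19, Igf2r, Dlk1, Meg3, Peg3, Plagl1, Grb10 and Mest were followed across the cell types of the newborn mouse kidney. They were taken by symbol as a list of genes, with no threshold on their values but with earlier results of these data known, and all 9 were found among the 28693 features of the count matrices. RNA was counted in single cells of 2 kidney samples taken at postnatal day 0, replicates 1 and 2. Both carried the genotype Rbpj c/- ; Foxd1cre/+, in which the remaining conditional Rbpj allele is exposed to a Cre driven from Foxd1, a gene of the renal interstitial progenitors. Rbpj encodes the DNA-binding partner of activated Notch receptors. Control kidneys were not analysed here. Every comparison is therefore between cell types or cell states of mutant kidneys, and none measures an effect of the mutation. The labels do not say whether a sample pooled animals. Tests fit the library as a term, so p-values measure how differences between types or states vary between these 2 libraries. They do not measure the spread among kidneys beyond these 2 samples.

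In genomic imprinting an allele is used or silenced according to the parent it came from, and several imprinted genes set fetal growth. Igf2 encodes a fetal growth factor expressed from the paternal allele, and H19 is a maternally expressed non-coding RNA from the same domain that shares its enhancers. Igf2r, maternally expressed in most mouse tissues, encodes a receptor that carries IGF2 to lysosomes for degradation. Dlk1, a paternally expressed transmembrane protein related to Notch ligands, shares a domain with the maternally expressed non-coding RNA Meg3. Peg3 and Plagl1 encode zinc-finger proteins, Grb10 an adaptor that dampens insulin and IGF receptor signalling, and Mest a hydrolase-like protein of mesodermal tissue. Counts of UMIs (unique molecular identifiers, 1 per captured RNA molecule) do not separate the parental alleles, so imprinting itself was not measured.

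In the GRCm38.p6 annotation of RefSeq, Igf2 (ENSMUSG00000048583) spans chromosome 7 from 142650768 to 142666816 and H19 (ENSMUSG00000000031) spans 142575530 to 142578146 on the same chromosome, 72.6 kb apart. Dlk1 (ENSMUSG00000040856, 109452485 to 109463336) and Meg3 (ENSMUSG00000021268, 109540996 to 109571729) lie 77.7 kb apart on chromosome 12. Peg3 (ENSMUSG00000002265) is at 6703892 to 6730462 on chromosome 7 and Igf2r (ENSMUSG00000023830) at 12682406 to 12769706 on chromosome 17. Plagl1 (ENSMUSG00000019817) is at 13090832 to 13131694 on chromosome 10, Grb10 (ENSMUSG00000020176) at 11930499 to 12037428 on chromosome 11, and Mest (ENSMUSG00000051855) at 30733506 to 30748466 on chromosome 6. H19 and Meg3 are annotated as long non-coding RNAs and the other 7 as protein-coding. Igf2r overlaps the non-coding gene Airn, which had 2658 and 1941 UMIs in the kept cells of replicates 1 and 2, Mest overlaps Copg2 (3238 and 2474), Igf2 overlaps Igf2os (209 and 125) and Meg3 overlaps Rtl1 (161 and 35). Whether the counting used strand is not given in the sources used here, so reads from these overlaps may be shared between the partners.

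The libraries held 163405630 and 135436576 UMIs. After removal of barcodes with under 2000 UMIs, with over 10% mitochondrial UMIs or scored as doublets, 5910 and 4937 cells were kept, with a median of 11716.5 and 12196 UMIs. Cells were assigned to a type by the level of fixed marker genes, none of which is a member, and 4912 (83.1%) and 4154 (84.1%) cells received a type. The ending "-like" marks that a name rests on markers alone. In all, 11 types had at least 20 cells in each library and entered the tests, whereas distal tubule-like cells (9 and 4) did not. The marker check went partly against the mural-like name: 87 of its 272 cells (32.0%) lay in clusters named mural, and its cells held a median of 43.4 stroma marker UMIs per 10000 beside 74.6 of their own. Of the early nephron-like cells 67.1% lay in clusters of that name. The libraries differed in sex-linked genes, with Xist at 1169 CPM (UMIs of a gene per 1000000 UMIs counted) in replicate 1 and 0.187 in replicate 2, so sex and library cannot be told apart. Rbpj itself was counted at 46.7 and 47.3 CPM, which does not check the deletion, because 3′ counts do not tell a transcript lacking an internal exon from a complete one. Of the kept barcodes 5 occurred in both libraries.

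Most members peaked outside the epithelium. Igf2, H19, Igf2r, Dlk1, Meg3, Peg3 and Mest each had their highest mean level in stroma-like, mural-like or endothelial-like cells, the interstitium, vessel wall and vessel lining. Plagl1 was highest in podocyte-like cells and Grb10 in nephron progenitor-like cells. Below their peaks Igf2r and Peg3 were also present across epithelial types. Levels of a type are CPM of the summed cells of that type in a library, given for replicate 1 and then replicate 2, and they rank types within a gene only.

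**Figure D1:**
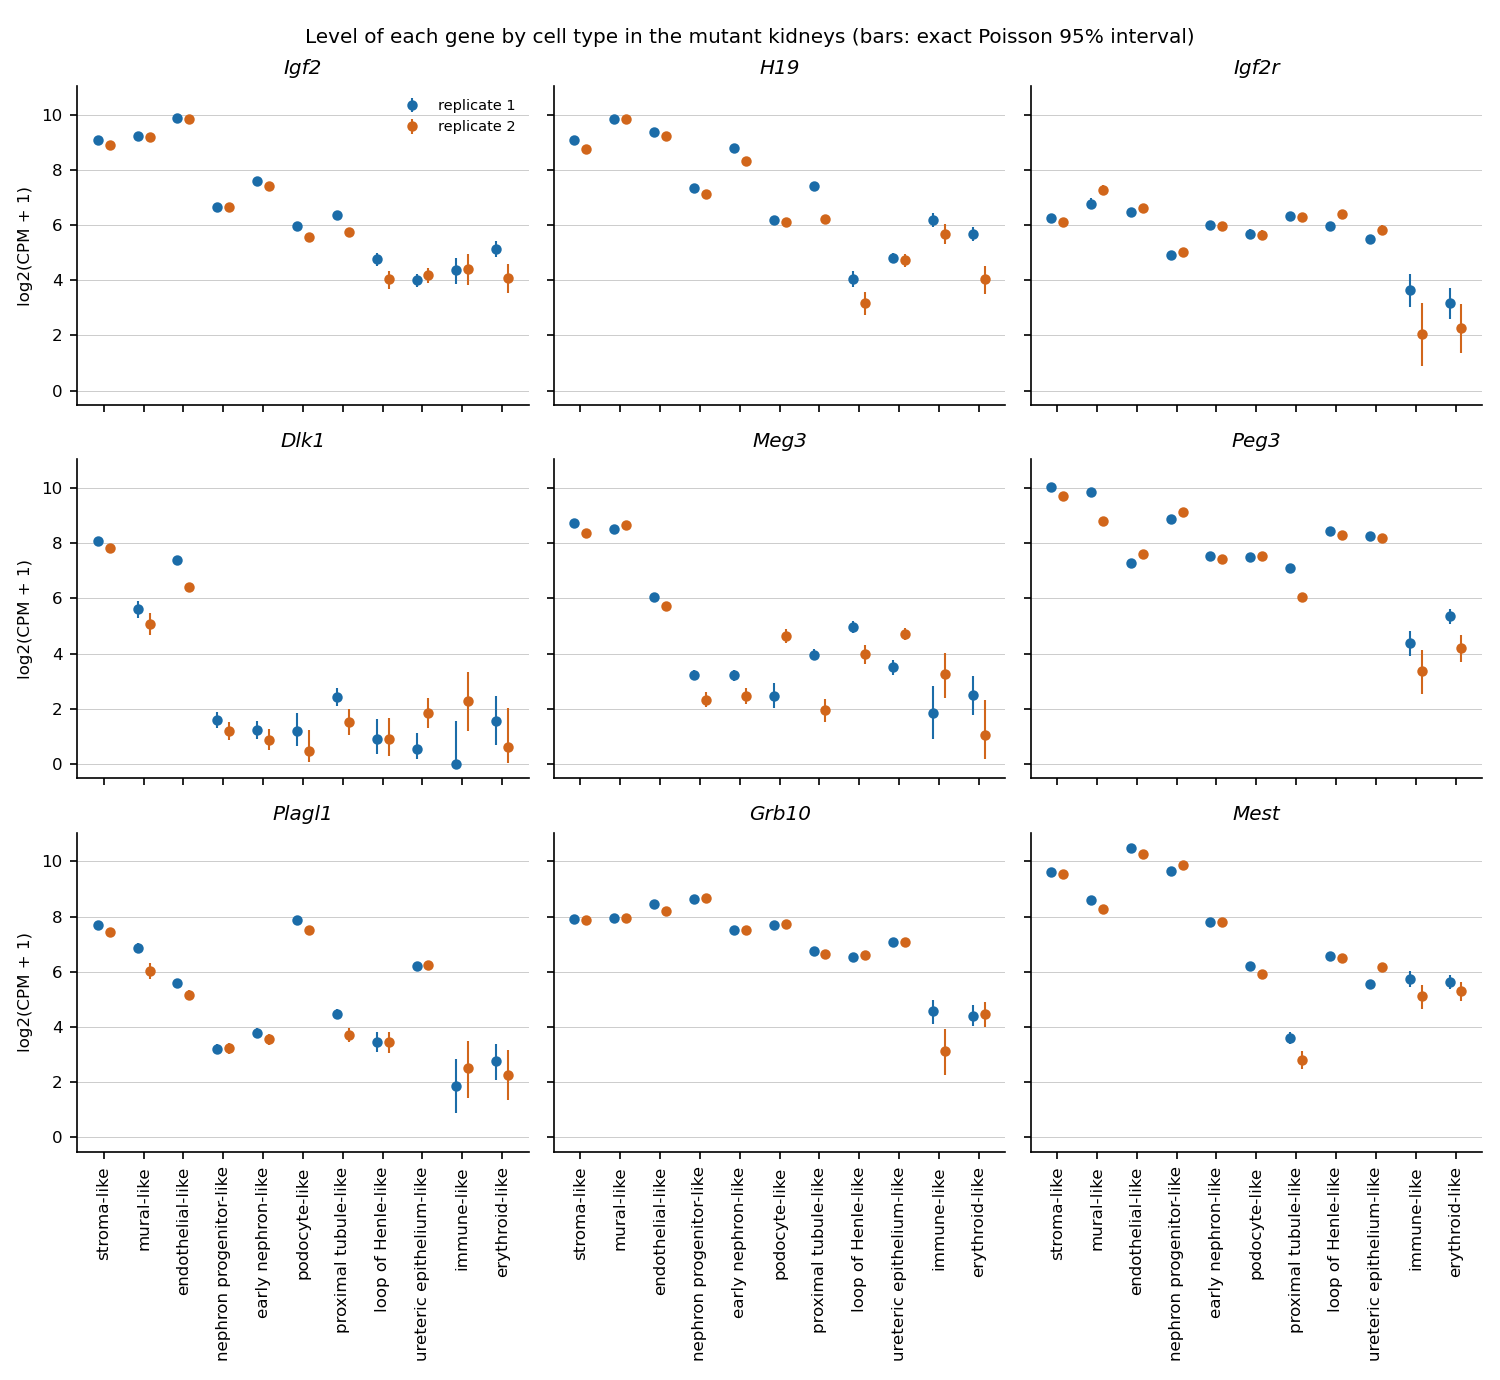
Each panel plots a gene's level, as log2(CPM + 1), in 11 cell types, with a point per library and bars for the exact Poisson 95% interval, which covers counting error only. Igf2 and H19 fall from vessel and stroma cells to tubule cells, Dlk1 stands above 30 CPM only in stroma-like, mural-like and endothelial-like cells, and Plagl1 peaks in stroma-like and podocyte-like cells.

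For the growth factor itself, Igf2 counted 945 and 918 CPM in endothelial-like cells, 594 and 584 in mural-like cells and 546 and 471 in stroma-like cells. In the nephron lineage it stood at 192 and 170 CPM in early nephron-like cells, 99.9 and 100.3 in nephron progenitor-like cells, 82.0 and 52.7 in proximal tubule-like cells and 60.9 and 45.9 in podocyte-like cells. It was lowest in ureteric epithelium-like cells, at 15.04 and 17.2 CPM. The libraries of endothelial-like, mural-like, stroma-like, early nephron-like and nephron progenitor-like cells did not overlap with those of the next type in this order, whereas proximal tubule-like and podocyte-like cells overlapped. By the means of the libraries endothelial-like cells stood at 932 ± 19.1 CPM and ureteric epithelium-like cells at 16.1 ± 1.52 CPM (SD, n = 2). The latter is at the level of erythroid-like cells (34.2 and 15.9 CPM), taken further on as a background, so no fold is given.

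H19 followed a similar order with a different top. It counted 913 and 912 CPM in mural-like cells, 657 and 595 in endothelial-like cells, 545 and 435 in stroma-like cells and 444 and 316 in early nephron-like cells. Stroma-like and early nephron-like cells overlapped. Proximal tubule-like cells had 170 CPM in replicate 1 and 73.5 in replicate 2, and loop of Henle-like cells were lowest at 15.5 and 7.99. Igf2r, the receptor that clears IGF2, varied less among kidney types. It was highest in mural-like cells (108 and 153 CPM) and endothelial-like cells (87.2 and 96.7), while proximal tubule-like (78.3 and 77.1), loop of Henle-like (61.0 and 84.0) and stroma-like cells (75.0 and 68.3) overlapped. Nephron progenitor-like cells had the lowest level outside the blood types, at 29.2 and 31.6 CPM, and both libraries lay below those of every other kidney type.

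Dlk1 was the most restricted member. It counted 272 and 227 CPM in stroma-like cells, 167 and 83.2 in endothelial-like cells and 47.5 and 32.9 in mural-like cells. In each of the other 8 types its mean level was at most 3.13 CPM, and those types could not be ordered, since neighbouring libraries overlapped. Its domain partner Meg3 was likewise high in stroma-like (422 and 333 CPM) and mural-like cells (365 and 405), which overlapped, and reached 65.0 and 51.2 CPM in endothelial-like cells. Meg3 in podocyte-like cells depended on the library, with 28 UMIs (4.56 CPM) in replicate 1 and 127 UMIs (23.8 CPM) in replicate 2, found in 2.37% and 2.06% of its cells.

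Of the zinc-finger genes, Peg3 was broadly present. It counted 1041 and 845 CPM in stroma-like cells, 920 and 448 in mural-like cells, 463 and 555 in nephron progenitor-like cells, 346 and 312 in loop of Henle-like cells and 305 and 288 in ureteric epithelium-like cells. The stroma-like, mural-like and nephron progenitor-like libraries overlapped in sequence, and the mural-like value of replicate 1 was 2.05 times that of replicate 2. Plagl1 was high in podocytes and in stroma. It stood at 236 and 184 CPM in podocyte-like cells and 207 and 172 in stroma-like cells, which overlapped. Mural-like cells had 116 and 63.8 CPM, ureteric epithelium-like cells 73.6 and 75.0, and nephron progenitor-like cells 8.18 and 8.4.

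Grb10 was present in every kidney type. The order ran from nephron progenitor-like cells (394 and 408 CPM) through endothelial-like (346 and 295), mural-like (247 and 248), stroma-like (242 and 236), podocyte-like (206 and 213) and early nephron-like cells (183 and 180) to loop of Henle-like cells (91.2 and 95.6), and no neighbours within that order overlapped. Mest counted 1435 and 1243 CPM in endothelial-like cells, 797 and 930 in nephron progenitor-like cells and 792 and 741 in stroma-like cells. In early nephron-like cells Mest was 222 and 223 CPM, and in proximal tubule-like cells 11.1 and 6.01, which was below the level in the blood types (52.6 and 33.5 in immune-like cells).

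Free RNA sets a background for low values. In barcodes with 100 UMIs or fewer, which hold RNA from the medium, Igf2 stood at 146 and 100 CPM, H19 at 228 and 172, Dlk1 at 34.4 and 27.7, Plagl1 at 55.1 and 41.2 and Mest at 255 and 265. Erythroid-like cells, red blood cell precursors taken here as a background, had from 0.012 to 0.234 of the free level over the 9 genes and both libraries. Their median depth was 4542 UMIs, below the 9460 of stroma-like cells. Levels near those of the erythroid-like cells, such as Dlk1 in all epithelial types, are not read as expression. Meg3 was the only member with more in the free profile than in kept cells in both libraries, at 1.60 and 1.71 times.

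The first test set stroma-like cells, the compartment that Foxd1Cre targets, against the mean of the other non-blood types. Of the 9 members 8 were higher in stroma-like cells and none was lower (edgeR quasi-likelihood test, Benjamini-Hochberg adjusted p under 0.05), where 56.8% of the 15205 genes tested passed, 30% higher and 26.8% lower. Types differ in most genes, so a count of members has to be read against that share. Dlk1 was higher by 6.17 ± 0.14 on the log2 scale (± SE, adjusted p = 1.04e-18), Meg3 by 4.17 ± 0.22 (9.84e-13), Plagl1 by 2.63 ± 0.09 (8.35e-16), Mest by 2.37 ± 0.10 (5.74e-14) and Igf2 by 2.35 ± 0.09 (5.4e-15). H19 (1.94), Peg3 (1.90) and Grb10 (0.38, adjusted p = 0.000337) completed the set, and Igf2r did not pass at 0.19 ± 0.11 (adjusted p = 0.162), though it did with at most 5% mitochondrial UMIs (0.70, adjusted p = 1.05e-05) and in Leiden clusters (0.28, adjusted p = 0.00619). Without the adventitial group of stroma-like cells, described further on, Dlk1 was higher by 3.64 and Meg3 by 3.24. The mean of the other types includes types with Dlk1 near the background of erythroid-like cells, on which the size of its difference depends. The same holds for Mest, Igf2, H19, Meg3 and Plagl1. By library means Mest was 8.56 CPM in proximal tubule-like cells, against 43.7 in erythroid-like cells. In loop of Henle-like cells Igf2 was 20.7 and H19 11.8 CPM, against 25.0 and 32.8. In nephron progenitor-like cells Meg3 was 6.17 and Plagl1 8.29 CPM, against 2.85 and 4.79. Igf2, H19, Mest and Grb10 had higher mean levels in endothelial-like than in stroma-like cells. The median log2 fold change of the members was 2.35, beside -0.02 over all genes tested.

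Other imprinted genes, and genes of the IGF axis with regulators of imprints, were listed alongside the members. Of 44 other imprinted genes listed, 43 were among the features and 40 were tested. Of the tested genes 23 were higher and 7 lower in stroma-like cells, where 56.8% of all genes passed, 30% higher and 26.8% lower. Dcn, the collagen-binding proteoglycan decorin, was higher by 7.88, Zim1 by 4.97, Mirg, from the Dlk1 domain, by 4.24 and Peg10 by 4.19. Cobl (-1.73), Gatm (-1.55), Copg2 (-0.75) and Ppp1r9a (-0.72) were the lowest. Of 26 tested genes of the IGF axis 15 were higher and 7 lower, beside the same shares of all genes. The binding proteins Igfbp3 (5.50), Igfbp6 (3.5) and Igfbp5 (3.31) and the ligand Igf1 (4.54) led the higher side, whereas Igfbp1 (-2.32), the binding-protein protease Pappa2 (-1.70), the RNA-binding Igf2bp1 (-0.94) and the adaptor Grb14 (-0.80) were lower.

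**Figure D2:**
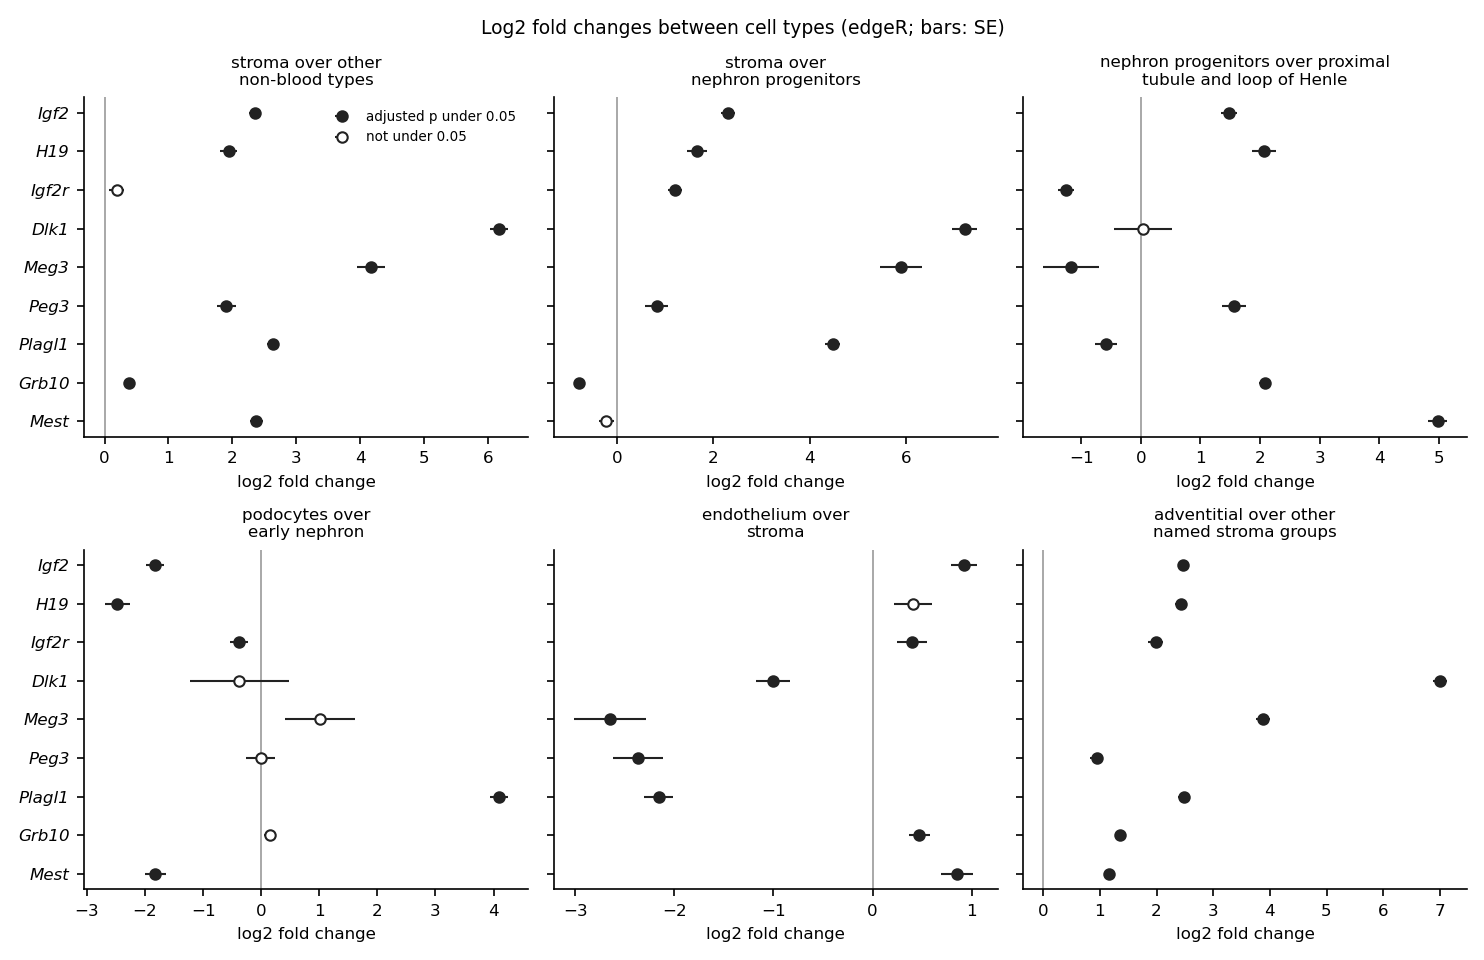
Log2 fold changes of the 9 genes in 6 comparisons, with SE as bars and filled points where the adjusted p was under 0.05. Dlk1 has the largest value of the 9 in both comparisons of stroma over other cells and in the adventitial comparison, and Plagl1 stands alone on the higher side among called genes in podocytes over early nephron.

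Between stroma-like and nephron progenitor-like cells 7 members were higher in stroma and Grb10 was lower, where 55.6% of all genes passed, 27.3% higher and 28.3% lower. Dlk1 differed by 7.22 ± 0.26 (adjusted p = 6.03e-15), Meg3 by 5.89 ± 0.44, Plagl1 by 4.48 ± 0.16, Igf2 by 2.30 ± 0.14, H19 by 1.66 ± 0.20, Igf2r by 1.21 ± 0.15 and Peg3 by 0.83 ± 0.23 (adjusted p = 0.0049). Without the adventitial group Dlk1 differed by 4.68 and Meg3 by 4.96. The progenitor level of Dlk1 (2.03 and 1.27 CPM) is near that of erythroid-like cells (1.92 and 0.547), so the size of its difference depends on a background level. By library means Meg3 (6.17 against 2.85 CPM) and Plagl1 (8.29 against 4.79) in progenitors were near it too, so the same holds for them. Grb10 was lower in stroma-like cells by a log2 value of -0.78 ± 0.11 (adjusted p = 2.45e-06), and Mest did not pass (-0.21 ± 0.16, adjusted p = 0.265). Progenitors thus combined high Grb10, Mest and Peg3 with Dlk1, Meg3 and Plagl1 at under 10 CPM. Of the other imprinted genes 19 of 40 were higher in stroma and 9 lower. Asb4 (6.5), Sgce (6.40) and Peg10 (6.11) were, with Dcn, the largest on the stroma side, and Nnat (-1.66) and Snhg11 (-3.92) were higher in progenitors. In the IGF axis 11 of 26 were higher and 5 lower in stroma. Pappa, a protease that frees IGF from its binding proteins (6.27), and Igfbp7 (5.21) were higher, and Igfbp2 (-1.10), Igf2bp1 (-1.03) and Igf2bp2 (-0.97) lower.

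Nephron progenitor-like cells were next set against the mean of the proximal tubule-like and loop of Henle-like types, since distal tubule-like cells were too few to enter. Here 8 members passed, where 64.9% of all genes did (33.2% higher and 31.7% lower), and their directions were mixed. Mest was higher in progenitors by 4.98 ± 0.16 (adjusted p = 2.52e-16), Grb10 by 2.08 ± 0.09, H19 by 2.06 ± 0.20, Peg3 by 1.57 ± 0.20 and Igf2 by 1.48 ± 0.13. Mest in proximal tubule-like cells (11.1 and 6.01 CPM) was below its level in erythroid-like cells (49.1 and 38.3), so the size of its difference depends on a background level. The same holds for H19 and Igf2 through loop of Henle-like cells, where H19 (15.5 and 7.99) and Igf2 (26.1 and 15.3) were below the erythroid-like levels (50.3 and 15.3, and 34.2 and 15.9) of the same library. Igf2r was lower in progenitors at -1.25 ± 0.13 (adjusted p = 6.23e-08), as were Meg3 (-1.17 ± 0.47, adjusted p = 0.0337) and Plagl1 (-0.59 ± 0.18, adjusted p = 0.00718). By library means Meg3 was 6.17 and Plagl1 8.29 CPM in progenitors, near the 2.85 and 4.79 of erythroid-like cells. Their differences therefore also depend on a background level. With a limit of 5% mitochondrial UMIs, Meg3 (1.38) and Plagl1 (0.09) changed sign and did not pass, and Meg3 also missed the threshold with DESeq2, without the library block, in Leiden clusters and with a stricter gate (adjusted p up to 0.184). The mean of the tubule types hides a difference for H19, which was very low in loop of Henle-like cells. Its level in progenitors (161 and 139 CPM) overlapped with that in proximal tubule-like cells (170 and 73.5), which was the higher of both in replicate 1. Among other imprinted genes 14 of 40 were higher in progenitors and 12 lower, led by Zim1 (4.0), Peg12 (3.38), Nnat (3.37) and by Cobl (-4.86), Phlda2 (-3.78) and Slc22a18 (-3.67). In the IGF axis 11 were higher and 9 lower, and Zfp57, a zinc-finger protein that maintains methylation at imprinted loci, was higher by 3.59.

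Podocytes, the filtering cells of the glomerulus, come from the early nephron. Between podocyte-like and early nephron-like cells 5 members passed, where 64% of all genes did, 29.8% higher and 34.2% lower. Plagl1 was higher in podocyte-like cells by 4.10 ± 0.16 (adjusted p = 7.75e-15). H19 (-2.48 ± 0.22), Igf2 (-1.83 ± 0.16) and Mest (-1.82 ± 0.18) were lower. By library means Mest was 65.5 CPM in podocyte-like and 43.7 in erythroid-like cells, H19 70.3 and 32.8, and Igf2 53.4 and 25.0. The sizes of these differences therefore depend in part on a background level. Igf2r was lower by a small amount (-0.38 ± 0.16, adjusted p = 0.0406), and that call was lost under most alternatives, with adjusted p from 0.00214 to 0.964. Grb10 (0.15) and Peg3 (-0.01) did not pass. Meg3 did not pass either (1.02, adjusted p = 0.151), and its sign depended on the library, at 2.33 without replicate 1 and -0.88 without replicate 2. Of the other imprinted genes 13 of 40 were higher and 10 lower in podocyte-like cells. Cdkn1c, an imprinted inhibitor of the cell cycle, was higher by 6.0 and Nnat was lower by a log2 value of -3.95.

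Between endothelial-like and stroma-like cells 8 members passed, 4 in each direction, where 51.5% of all genes passed, 26.3% higher and 25.2% lower. Igf2 (0.93 ± 0.13), Mest (0.85 ± 0.16), Grb10 (0.47 ± 0.11) and Igf2r (0.40 ± 0.15, adjusted p = 0.0282) were higher in endothelial-like cells, of which Igf2r lost its call under 4 alternatives (adjusted p up to 0.978, at most 5% mitochondrial UMIs). Meg3 (-2.65 ± 0.37), Peg3 (-2.37 ± 0.25), Plagl1 (-2.16 ± 0.14) and Dlk1 (-1.0 ± 0.17, adjusted p = 5.41e-05) were lower, and H19 did not pass (0.41 ± 0.19, adjusted p = 0.0837). The IGF ligand Igf1 was higher in endothelial-like cells by 2.66 and the insulin receptor Insr by 0.76, whereas the insulin receptor substrates Irs1 (-4.67) and Irs2 (-3.87) were lower. Of the other imprinted genes 6 of 40 were higher and 23 lower, and Rtl1, a gene of the Dlk1 domain that overlaps Meg3, was the highest at 4.37. Of its endothelial UMIs, 141 in replicate 1 and 26 in replicate 2 came from 24 and 11 cells high in Dlk1, and the other endothelial-like cells had 9 and 2.

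The direction for Dlk1 in that comparison rested on a small group of stroma. Stroma-like cells were divided further with fixed markers into cortical (101 and 99 cells), medullary (72 and 62), mesangial (157 and 117) and adventitial groups (54 and 41), and the rest received no further name. The adventitial markers Clec3b, Dpt, Tnxb and Pi16 are those of fibroblasts of vessel sheaths and connective tissue layers. They summed to 2754 and 2743 CPM in the adventitial group and to at most 6.71 CPM in the cortical, medullary and mesangial groups. Stroma markers summed to 47507 and 42771 CPM in the adventitial group, beside 5378 to 6669 in the 3 others. Of the neural markers, Stmn2 was present in the adventitial group (274 and 193 CPM), with Sox10 at 0. Nephron progenitor markers summed to 130 and 227 CPM there, led by Spock2, beside 13.2 to 88.3 in the 3 others.

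**Figure D3:**
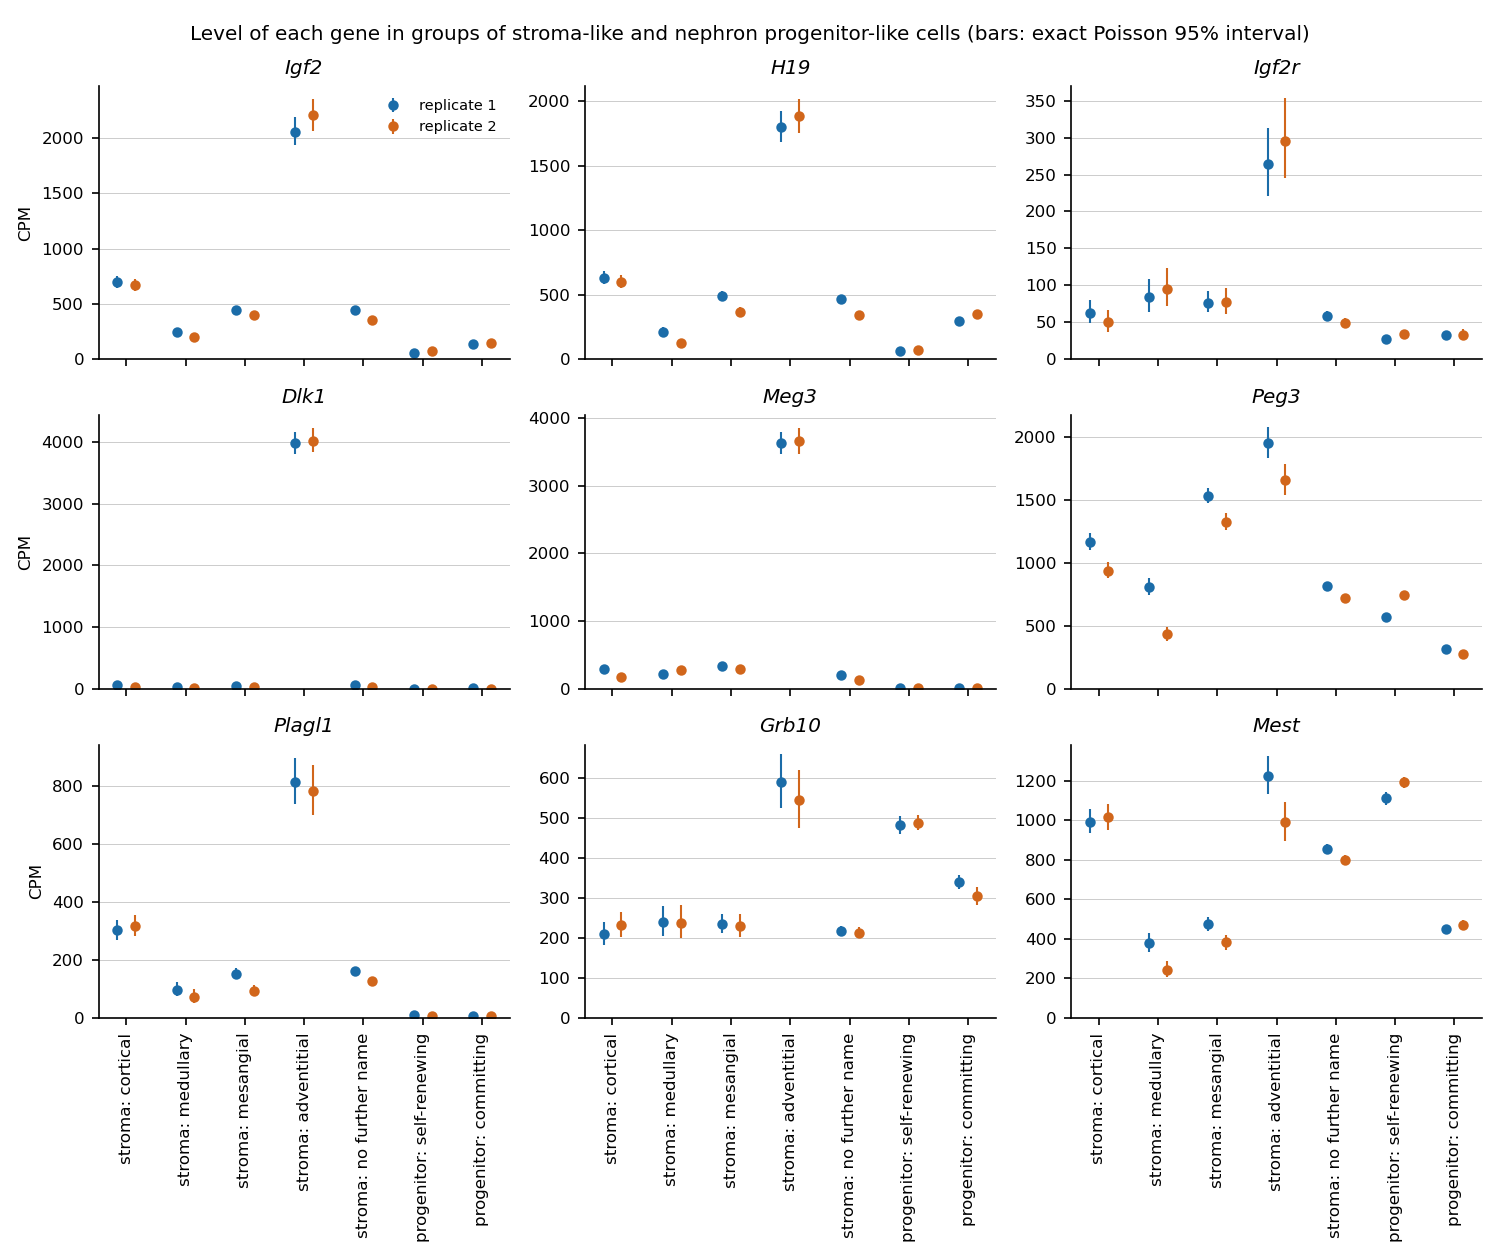
Each panel plots the level in CPM of a gene in groups of stroma-like and nephron progenitor-like cells, with a point per library and exact Poisson 95% intervals. The adventitial group lies above the other stroma groups for Igf2, H19, Igf2r, Dlk1, Meg3, Peg3, Plagl1 and Grb10 in both libraries, and Mest overlaps with the cortical group.

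Adventitial cells carried the highest levels of most members. Dlk1 stood at 3983 and 4021 CPM in the adventitial group, against 62.3 and 33.5 in the cortical, 42.2 and 31.1 in the mesangial and 27.6 and 12.1 in the medullary group. Meg3 stood at 3625 and 3654 CPM, against 297 and 167, 333 and 283, and 217 and 279 in the same groups. Both genes were alike in the adventitial cells of both libraries, and no other stroma group came near these levels. Igf2 was 2056 and 2203 CPM in adventitial cells, more than the 945 and 918 of endothelial-like cells. H19 was 1800 and 1881, Plagl1 814 and 782, Grb10 589 and 545 and Igf2r 264 and 296.

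Although the adventitial group made up 5.99% and 4.86% of stroma-like cells, it held 80.5% and 86.8% of their Dlk1 UMIs. It held 47.1% and 53.8% of the Meg3 UMIs, 20.7% and 22.9% of Igf2, 18.1% and 21.2% of H19 and 21.6% and 22.2% of Plagl1. For Mest (8.51% and 6.55%) and Peg3 (10.3% and 9.64%) the share was closer to the group's 5.49% and 4.91% of all stroma UMIs. Against the mean of the other named stroma groups all 9 members were higher in adventitial cells, where 28.5% of the 11845 genes tested passed, 15.1% higher and 13.3% lower. This comparison was added after the levels were known. Dlk1 differed by 7.0 ± 0.12 (adjusted p = 6.84e-24), Meg3 by 3.88 ± 0.12, Plagl1 by 2.48 ± 0.11, Igf2 by 2.47 ± 0.08, H19 by 2.43 ± 0.11 and Igf2r by 1.98 ± 0.13. Grb10 (1.35), Mest (1.17) and Peg3 (0.94) differed least. Of 34 other imprinted genes tested 15 were higher, Dcn by 4.22 and Mirg by 3.40 among them, and 4 lower, Asb4 (-2.08) and Peg10 (-1.47) among them. Igf1 (7.02) and Igfbp6 (5.94) led the IGF axis, of which 7 of 22 were higher and 3 lower.

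With the adventitial cells left out, Igf2 (2.07) and Plagl1 (2.36) still passed between stroma-like and the other non-blood types. Between endothelial-like and stroma-like cells it turned the sign of Dlk1, which was then higher in endothelial-like cells by 1.55 (adjusted p = 2.13e-07, with a range from 1.19e-18 to 0.104 over the alternatives of that result), and H19 then passed at 0.65. Dlk1 there also missed the threshold with DESeq2 (-1.03, adjusted p = 0.104).

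The remaining stroma groups differed among themselves. Medullary cells had the lowest level of the named groups in Igf2 (243 and 201 CPM), H19 (212 and 125) and Mest (380 and 244). Cortical cells, among whose markers is Foxd1, came next to the adventitial group in Igf2 (695 and 667), H19 (631 and 598) and Plagl1 (302 and 316), with Mest at 994 and 1015. Peg3 was 1536 and 1328 CPM in mesangial cells, 1169 and 939 in cortical cells and 807 and 434 in medullary cells. Markers of other types differed as well. Mural markers summed to 1423 and 1435 CPM in medullary, 1159 and 1164 in mesangial and 778 and 541 in cortical cells. Endothelial markers summed to 115 and 109, 79.9 and 98.1, and 40.6 and 40.2 CPM in the same groups. Wnt4 stood at 329 and 666 CPM in medullary and 17.3 and 7.55 in mesangial cells. The part of these markers in the group differences was not tested. Against the mean of the other named groups, in which the adventitial group weighs, 8 members were lower in medullary cells, where 10.5% of all genes passed (5.76% higher and 4.75% lower), with Igf2 at -1.97 ± 0.11, H19 at -2.25 ± 0.15, Mest at -1.35 ± 0.11 and Plagl1 at -1.92 ± 0.15. The call of Grb10 was lost in thinned cells (adjusted p = 0.255), and its medullary level (239 CPM by the mean of the libraries) was not below that of cortical (222) and mesangial cells (232). Of cortical cells 6 members passed, where 14.6% did, 8.96% higher and 5.69% lower. Mest (0.93 ± 0.09, adjusted p = 3.55e-08) and Plagl1 (0.62 ± 0.11, adjusted p = 0.000302) were higher, and Igf2r, Dlk1, Meg3 and Grb10 lower. Of mesangial cells all 9 passed, where 11.3% did, 7.23% higher and 4.05% lower. Peg3 was higher there (0.41 ± 0.11, adjusted p = 0.0209, but 0.198 with DESeq2 and 0.105 without the library block) and the other 8 were lower, of which H19 lost its call without the block (adjusted p = 0.0659). These directions are set against a mean that includes the adventitial group. Mesangial cells were above medullary cells by the means of the libraries in Igf2 (422 against 222 CPM), H19 (428 against 169) and Mest (428 against 312), and their Meg3 (308) was above both the cortical (232) and the medullary mean (248).

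Dlk1 was spread unevenly over endothelial-like cells too. A UMI of it was found in 45 of 710 and 26 of 484 endothelial-like cells, beside 225 of 902 and 154 of 843 stroma-like cells and 0.447% of erythroid-like cells by the mean of the libraries (median depths 8697, 9460 and 4542 UMIs). The 10 endothelial-like cells with the most Dlk1 held 72.8% and 93.2% of the type's Dlk1 UMIs, against 29.8% and 41.1% for the 10 highest stroma-like cells. The mean endothelial level is therefore that of a few cells, and the gap between its libraries (167 and 83.2 CPM) rests on the same few. The 24 and 11 endothelial-like cells with 5 or more Dlk1 UMIs per 10000 held 1537 of 1624 and 494 of 529 Dlk1 UMIs of the type, and 64 and 45 stroma-like cells reached the same level.

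**Figure D4:**
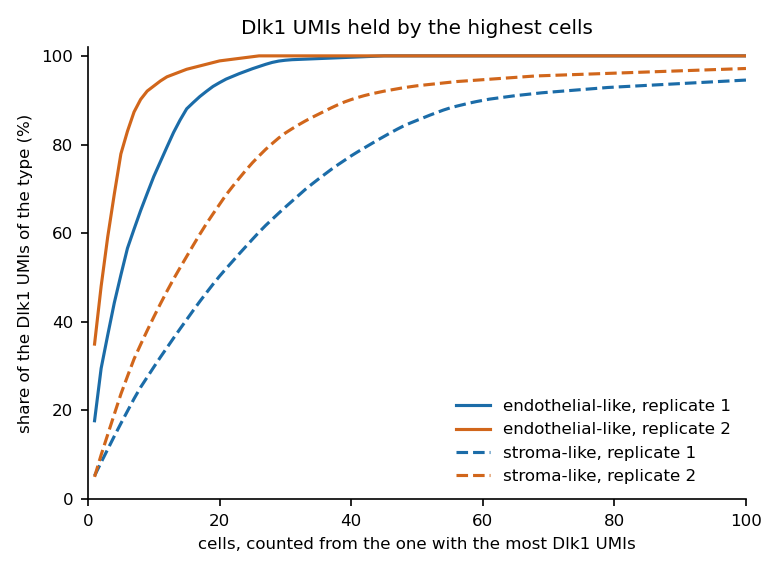
The share of a type's Dlk1 UMIs, in percent, held by its highest cells, counted from the cell with the most, with a line per type and library. In endothelial-like cells 10 cells hold 72.8% and 93.2%, and the stroma-like lines climb more slowly.

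Nephron progenitors also differed by state. Self-renewing cells (markers Cited1, Meox1 and Osr1, 123 and 203 cells) and committing cells (Wnt4, Lhx1 and Pax8, 105 and 73 cells) were compared in a test that was likewise added after the levels were known. H19 stood at 64.6 and 75.1 CPM in self-renewing and 298 and 350 in committing cells, and Igf2 at 59.4 and 73.9 against 138 and 146. The 3 other abundant members went the opposite way. Mest stood at 1111 and 1191 in self-renewing and 449 and 470 CPM in committing cells, Peg3 at 566 and 742 against 313 and 273, and Grb10 at 483 and 489 against 339 and 304. The libraries of the states did not overlap for any of these 5 genes.

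By test, 5 members passed between committing and self-renewing cells, where 10.9% of all genes did, 6.12% higher and 4.76% lower. H19 was higher in committing cells by 2.19 ± 0.14 (adjusted p = 5.63e-11) and Igf2 by 1.07 ± 0.11 (adjusted p = 2.94e-07). Mest (-1.33 ± 0.10), Peg3 (-1.18 ± 0.14) and Grb10 (-0.60 ± 0.07) were lower. Igf2r (0.07 ± 0.15) and Plagl1 (-0.06 ± 0.29) did not pass, and Dlk1 and Meg3 were at under 10 CPM in both. Committing cells were deeper (median 21184 and 20168 UMIs, against 15031 and 14511) and held more dividing cells (34.3% and 34.2%, against 8.94% and 13.3%). With each cell thinned to 4000 UMIs all 5 genes passed in the same directions. The part of division in the result was not tested.

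Cells with markers of division (Mki67, Top2a, Cdk1, Ccnb1, Cenpf, Birc5 and Ube2c) were then set against the other cells of the same type. Averaged over stroma-like and nephron progenitor-like cells 7 members were lower in dividing cells and none was higher, where 30.7% of the 12904 genes tested passed, 12.5% higher and 18.3% lower. That count fell to 1 without replicate 1 and 2 without replicate 2, where a single residual degree of freedom is left, and to 4 in thinned cells. The average hides a difference between the types, which the interaction tested directly: for 5 members the difference between dividing and other cells was lower in stroma-like than in progenitor-like cells, where 10.7% of all genes passed, 4.04% higher and 6.66% lower. These were Igf2, H19, Meg3, Peg3 and Plagl1. Meg3 and Plagl1 in progenitor-like cells were near their erythroid-like levels, so the size of their interaction depends on a background level. With DESeq2 the count was 3, without Peg3 (adjusted p = 0.123) and Plagl1 (0.164), and Meg3 missed the threshold in thinned cells (0.125). Plagl1 missed it under 8 alternatives (adjusted p up to 0.849), among them leaving out the library block and leaving out the adventitial cells.

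**Figure D5:**
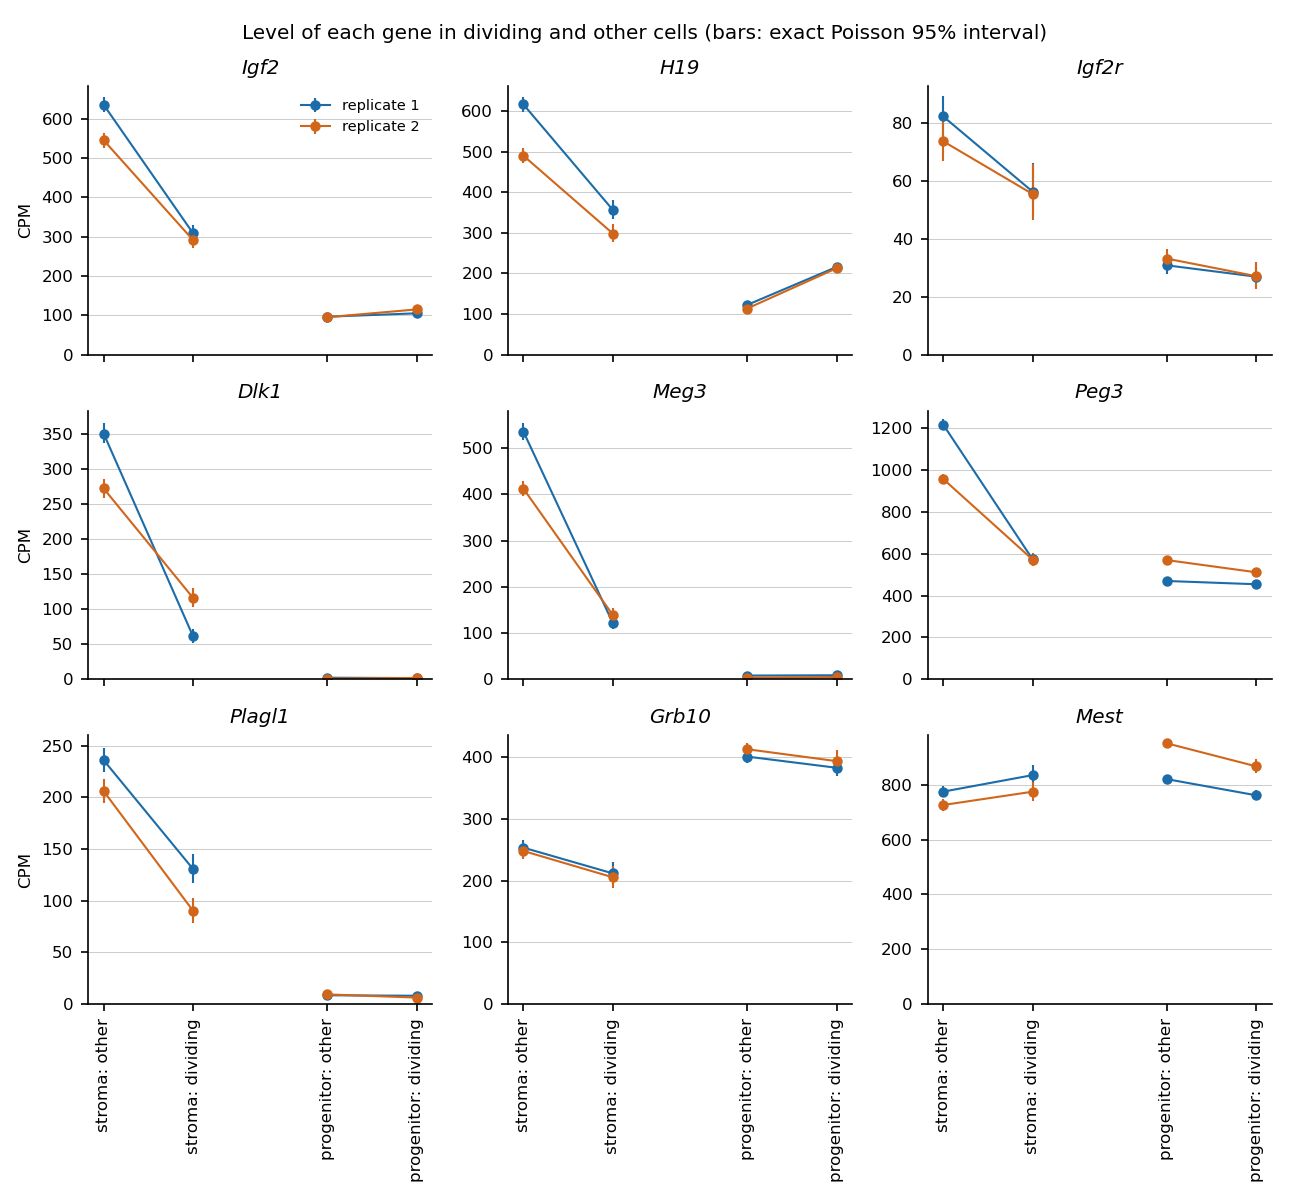
Each panel plots the level in CPM of a gene in other and in dividing cells of stroma-like and nephron progenitor-like types, with a line per library and exact Poisson 95% intervals. In stroma-like cells every gene but Mest drops in both libraries, while H19 rises in progenitor-like cells.

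In stroma-like cells Igf2 was 635 and 545 CPM in other cells and 308 and 291 in dividing cells. H19 was 617 and 490 against 356 and 298, Peg3 1217 and 957 against 573 and 572, Plagl1 236 and 206 against 131 and 90.1, and Meg3 536 and 412 against 121 and 139. For these 5 genes both dividing libraries lay below both others, and so they did for Igf2r, Dlk1 and Grb10. Mest did not follow, with 775 and 727 CPM in other cells and 836 and 775 in dividing cells. Within stroma-like cells alone, a comparison added after the interaction was known, 8 members were lower in dividing cells, where 30.7% of all genes passed, 11% higher and 19.7% lower. Meg3 was lower by a log2 value of -1.92 ± 0.12, Dlk1 by -1.88 ± 0.16, Plagl1 by -1.08 ± 0.09, Igf2 by -1.05 ± 0.07, Peg3 by -0.996 ± 0.09, H19 by -0.82 ± 0.07, Igf2r by -0.55 ± 0.11 and Grb10 by -0.33 ± 0.06, and Mest did not pass (0.03 ± 0.07). In thinned cells Igf2r (adjusted p = 0.195) and Grb10 (adjusted p = 0.142) missed the threshold.

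Stroma marker levels and group moved with division in stroma. The stroma markers summed to 3484 and 4118 CPM in dividing and to 8637 and 8015 in other stroma-like cells. Of the adventitial cells 2 of 54 and 5 of 41 were dividing. Without the adventitial cells 7 members remained called within stroma, with Igf2 at -0.87, Meg3 at -1.52 and Peg3 at -0.96, and Dlk1 no longer passed (-0.55, adjusted p = 0.0602). Dividing stroma-like cells were also deeper, at a median of 13597.5 and 12470 UMIs against 9047 and 8871.5. The part of the stroma, mural, nephron progenitor and early nephron markers in the result was not tested.

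In nephron progenitor-like cells only H19 passed between dividing and other cells, where 12.5% of all genes did, 8.15% higher and 4.39% lower. It stood at 216 and 213 CPM in dividing and 122 and 114 in other cells, higher by 0.83 ± 0.07 (adjusted p = 5.08e-09). Igf2 was 105 and 115 against 96.4 and 95.2 (0.16 ± 0.07, adjusted p = 0.19), and Grb10 (-0.10), Mest (-0.16) and Peg3 (-0.14) did not pass. Under 5 alternatives the count was 2 or 3. Mest was then also lower (adjusted p down to 0.000758, thinned), Igf2 was higher with at most 50000 UMIs (0.00704) and Peg3 lower without a filter on low counts (0.0344). Dividing progenitor-like cells were deeper, at a median of 29229 and 25029.5 UMIs against 14287 and 13688, and held more erythroid marker RNA (597 and 1184 CPM against 370 and 393). Markers of commitment moved with division, at 247 and 220 CPM in dividing and 164 and 127 in other progenitor-like cells. Without the committing cells H19 was still higher in dividing progenitors, at 0.54 (adjusted p = 1.56e-06). In thinned cells it was higher by 0.93. The part of erythroid RNA in the result was not tested.

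Of the wider lists, 15 of 34 other imprinted genes were lower and none was higher in dividing stroma-like cells, where 30.7% of all genes passed, 11% higher and 19.7% lower. Dcn (-2.01), Mirg (-2.22) and Zim1 (-1.49) were among those lower. In the IGF axis 14 of 22 were lower, Igf1 (-2.96), Igfbp3 (-1.66) and Igfbp6 (-1.59) among them, and 3 were higher. Those 3 were Dnmt1, the maintenance DNA methyltransferase (1.34), Ctcf, which binds the control region between H19 and Igf2 (0.86), and Trim28, a partner of Zfp57 (0.37). The same 3 were also higher in dividing progenitor-like cells, by 0.71, 0.52 and 0.31.

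Over the 22 sums of a library and a type, the gene most like Igf2 among 9274 genes was H19 (Pearson r = 0.945 of log2(CPM + 1)), followed by Akap12 (0.914) and Jam3 (0.911). The likeness is a description, because types of 1 library share its depth and preparation. Dlk1 was most like Clca3a1 (0.957), Ebf1 (0.946) and Igfbp3 (0.938), Meg3 like Itm2a (0.920), Peg3 like Obsl1 (0.937) and the imprinted Ndn (0.926), and Plagl1 like Tgfbr3 (0.894). Grb10 was most like Nedd4 (0.958), which encodes a ubiquitin ligase known to bind GRB10, Mest like Dchs1 (0.933) and Igf2r like Serpinh1 (0.944). Pairs of members ranged from 0.290 (Plagl1 and Mest) to 0.945 (Igf2 and H19). The domain partners Dlk1 and Meg3 reached 0.840, beside 0.856 for Peg3 and Grb10 and 0.837 for Igf2 and Dlk1, which share no domain.

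The libraries were not equal for all members. H19 was higher in replicate 1 in 8 of 11 types by a ratio whose exact 95% interval excluded 1, and in none was it higher in replicate 2. Igf2 was higher in replicate 1 in 6 types and in none in replicate 2, whereas Grb10 was higher in replicate 1 in 2 types and in replicate 2 in 1. These intervals cover counting error only, and with a single library of each sex nothing further was tested.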

How the data were processed

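The deposited values are raw counts of UMIs per gene and barcode in unfiltered matrices of 2720964 and 2654938 barcodes. Cell Ranger 4 is named per the file headers, Cell Ranger 6.0.1 and the mm10 build per the submitters' processing notes, and which of the versions made the counts could not be settled. Replicates were numbered in the order of the sample records. Barcodes with at least 2000 UMIs and at most 10% mitochondrial UMIs were kept, and doublets (310 and 212) were removed by Scrublet score at 0.8% per 1000 cells (scanpy 1.11.5, Python 3.11.15). A cell took the type with the highest mean scaled marker level if that was at least 0.5, led the second by 0.25 and rested on 3 markers, and a group within a type on 2. UMIs were summed per library and type and tested with edgeR 4.0.16 (R 4.3.3): TMM, filterByExpr, library as a block, Benjamini-Hochberg adjustment over all genes, threshold 0.05. Library as a block pairs the types of a kidney sample. The fits had 22, 8 and 16 sums with 10, 3 and 7 residual degrees of freedom. The sums were tested on simulated data for stroma-like against nephron progenitor-like cells over 15205 genes. Recovered were 84.5% of genes changed by 1 and 100% of those changed by 2 on the log2 scale, with 10 false calls. In the simulation only 200 genes differed between types and the spread was set. In the real comparison 55.6% of genes passed, so these rates need not hold there.

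The members and lists were chosen with earlier results of these data known. All 9 members are named, together with up to 4 called genes of each list in each direction and the 3 genes most like a member. Alternatives were other limits on UMIs, mitochondrial share and gates, no doublet removal, DESeq2 1.42.0, other scaling, no filter, no block, Leiden clusters, thinning to 4000 UMIs and each library left out. Leaving out the adventitial and the committing cells, and the comparisons of groups within types and of dividing cells within a single type, were added after seeing the data.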

Additional observations from a re-analysis of the deposited data

Results flagged for a closer look

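The difference between dividing and other cells differed between stroma-like and nephron progenitor-like cells by the interaction test for 5 members, all lower in stroma, where 10.7% of all genes passed, 4.04% higher and 6.66% lower. On the log2 scale the interaction was -1.20 for Igf2, -1.65 for H19, -2.19 for Meg3, -0.85 for Peg3 and -0.73 for Plagl1 (edgeR, adjusted p = 1.06e-07, 3.75e-10, 8.32e-05, 0.000156 and 0.0297). Meg3 in progenitor-like cells was 8.70 and 4.92 CPM in dividing and 8.05 and 3.70 in other cells. Erythroid-like cells had 4.61 and 1.09 CPM of it. Plagl1 was 7.91 and 6.15 in dividing and 8.37 and 9.19 in other progenitor-like cells, against 5.76 and 3.83 in erythroid-like cells. The sizes for Meg3 and Plagl1 therefore depend on a background level. H19 went in opposite directions in both libraries, lower in dividing stroma-like cells and higher in dividing progenitor-like cells. Over the alternatives Igf2 and H19 kept their call, with adjusted p of at most 0.000455 and 0.00028, while the highest adjusted p was 0.125 for Meg3, 0.123 for Peg3 and 0.849 for Plagl1.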

How the results depend on the processing

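Of 206 recomputed counts of called members 197 stayed within 1.5 times the value reported and 9 did not. Of the recomputed log2 fold changes of members 1869 kept direction and call, 60 lost the call, 35 gained it, 44 changed sign and 26, with no test, moved beyond their spread. Members called between dividing and other cells were 4 when thinned and 1 to 2 with a library left out, and in the difference between the types 3 with DESeq2. Within progenitors they were 2 with 5000 UMIs, in Leiden clusters and when thinned, and 3 with at most 50000 UMIs and without a filter. Each type comes from both libraries, and without the library block (the pairing by replicate) the counts were 8, 8, 7, 4 and 7 for the comparisons of types, 6 and 4 for division and its difference, 8 and 1 within stroma and progenitors, 6, 8, 9 and 7 for cortical, medullary, adventitial and mesangial groups and 5 for committing cells. Leaving out a library left the comparisons of types with no residual degree of freedom, hence values with no test.

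Sign changes were mostly in genes at a few CPM. Igf2r in stroma against other types was -0.059 and Dlk1 in endothelium against stroma 1.55 without adventitial cells. In progenitors against tubule Dlk1 was -0.40 and Meg3 1.38 and Plagl1 0.094 at 5% mitochondrial UMIs, and Dlk1 was -0.020 at 20%, -0.61 without doublet removal, -0.063 with at most 50000 UMIs, -0.012 with library-size scaling, -0.26 with the stricter gate, -0.58 when thinned and -0.22 without committing cells. In podocytes against early nephron Peg3 was 0.10 with 5000 UMIs, 0.10 at 5% and 0.072 at 20% mitochondrial UMIs, 0.17 without doublet removal, 0.36 with at most 50000 UMIs, 0.048 with DESeq2, 0.053 with library-size scaling and 0.24 when thinned, and Meg3 was -2.11 at 5% and -1.28 at 20% mitochondrial UMIs, -1.20 with at most 50000 UMIs, -0.30 in Leiden clusters and -0.25 when thinned. In dividing cells H19 was -0.012 with 1000 UMIs, -0.011 at 20% mitochondrial UMIs, -0.0010 without doublet removal, -0.016 with the stricter dividing gate and -0.14 without committing cells, and Grb10 in the difference between types 0.047 when thinned. Within progenitors Dlk1 was -1.20 at 5% mitochondrial UMIs, -0.62 without doublet removal, -0.95 with at most 50000 UMIs, -1.24 when thinned, -0.044 without adventitial and -0.21 without committing cells, and Meg3 -0.039 without doublet removal. In committing against self-renewing cells Igf2r was -0.063 with 5000 UMIs and -0.29 when thinned, Plagl1 0.030 at 20% mitochondrial UMIs, Dlk1 -0.055 without doublet removal, and Meg3 -0.33 with at most 50000 UMIs and -0.997 when thinned. Apart from Dlk1 in endothelium without adventitial cells, the cause was not tested, and precision is limited for Dlk1 and Meg3 in epithelial cells, where few of their UMIs were counted.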

Other observations

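The endothelial-like cells with 5 or more Dlk1 UMIs per 10000, 24 in replicate 1 and 11 in replicate 2, were picked after their values were seen and are described without a test. In them Rtl1, of the same domain, stood at 226 and 107 CPM, against 0.989 and 0.327 in the other endothelial-like cells, and Meg3 at 456 and 873 against 38.2 and 18.5. Mest was 2467 and 1980 CPM against 1365 and 1214, whereas H19 was 261 and 369 against 684 and 604 and Igf2 557 and 627 against 972 and 930. Ehd3, an endocytic gene known from glomerular endothelium, was 1532 and 1168 CPM against 275 and 178, and Plat, tissue plasminogen activator, 860 and 930 against 95.3 and 76.2. The endothelial markers Pecam1 (1396 and 1135 CPM) and Cdh5 (1125 and 1025) were present in both libraries. The cells were deeper than the other endothelial-like cells, at a median of 13582 and 14278 UMIs against 8391 and 8984, and the part of doublets missed by the Scrublet score was not tested. Stroma collagens differed between them, with Col3a1 at 3.21 and 398 CPM and Col1a1 at 3.21 and 221, so the cells of replicate 2 also held stroma RNA and its part in their Meg3 level was not tested.

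In adventitial cells the maintenance DNA methyltransferase Dnmt1 was lower than in the other named stroma groups by a log2 value of -1.84 (edgeR, adjusted p = 3.36e-05), as was Ctcf (-0.67, adjusted p = 0.000445). Of the adventitial cells 3.70% and 12.2% were dividing, beside 16.8% and 11.1% of cortical, 15.3% and 4.84% of medullary and 16.6% and 16.2% of mesangial cells. Both genes were higher in dividing stroma-like cells, and the part of division in this result was not tested.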
